A study of Homo sapiens with 12 samples.

Results

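The comparison described here asks how far the transcriptional effect of deltaNp63 differed between 2 human pancreatic cancer cell lines. It rests on 8 of the 12 RNA-seq libraries of the series, chosen by their labels: 2 of AsPC-1 with mock, 2 of AsPC-1 overexpressing deltaNp63, 2 of PANC-1 with mock and 2 of PANC-1 overexpressing deltaNp63, each pair labelled as biological replicates. AsPC-1 and PANC-1 are established lines derived from pancreatic carcinomas, and each is a single line, so a difference between them is a difference between these lines. The other 4 libraries, with TAp63, entered only the estimate of spread and one comparison of values near the end. The vector, the time after its delivery, the number of clones and the nature of the mock treatment were not given in the sources used here.

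deltaNp63 is the form of the transcription factor p63 that is made from the internal promoter of TP63 and lacks the full aminoterminal transactivation domain. It is known as a regulator of basal and squamous epithelial genes. The genes that separated the lines were mostly those of the interferon response. In that pathway, sensors of foreign nucleic acid induce type I and type III (lambda) interferons, which bind receptors coupled to the kinases JAK1 and TYK2. These phosphorylate STAT proteins, which join IRF9 and bind interferon-stimulated response elements in promoters, and the induced genes restrict viral replication, conjugate ISG15 to proteins and present antigen on MHC class I.

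Values are in TPM, relative transcript abundances scaled to the same total in every library, which keep no read depth, so precision rests on the replicates alone, and in cultures a lower TPM from fewer expressing cells cannot be told apart from less RNA per cell. The AsPC-1 deltaNp63 replicates stood further apart than the others, with a median absolute log2 difference of 0.211 across the 14767 tested genes against 0.11 to 0.141 in the other 3 groups. Epithelial markers were present in every library, with the sum of 10 genes running from 8249.1 to 11349.5 TPM among AsPC-1 libraries and from 3622.4 to 3981.5 TPM among those of PANC-1. Of 14 markers of leukocytes, red cells, endothelium and fibroblasts, all were under 1 TPM on average except LUM in AsPC-1 and COL1A1 and, in the mock cells, ITGAM in PANC-1.

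TP63 was examined first, because it checks the labels. In AsPC-1 it had 1.10 and 0.817 TPM with mock and at 245 and 350 TPM with deltaNp63. In PANC-1 it was at 0.119 and 0.0245 TPM with mock and at 815 and 1187 TPM with deltaNp63. Each deltaNp63 library thus lay far above its mock libraries, and both PANC-1 deltaNp63 libraries lay above both of AsPC-1. The line effects of 7.23 and 9.84 on the log2(TPM + 1) scale differed by 2.61 (SE 0.357, limma adjusted p 0.01), a difference that did not pass in a test of its most abundant transcript (1.52, limma adjusted p 0.155) or, with values of 2.34 to 2.67, without either PANC-1 mock library, the first AsPC-1 mock library or the second PANC-1 deltaNp63 library (limma adjusted p up to 0.0689). With a pseudocount of 0.1 in place of 1 it was 4.41 (limma adjusted p 0.00317). The mock levels lie near or under 1 TPM. The level of TP63 reached therefore moved with the cell line, and the 2 cannot be told apart here.

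Across the 14767 tested genes, the effect of deltaNp63 differed between the lines for 86 genes (0.582%), by the interaction test of limma at an adjusted p under 0.05. The difference is the PANC-1 effect minus the AsPC-1 effect, each as deltaNp63 minus mock on the log2(TPM + 1) scale. It was positive for 83 genes (0.562%) and negative for 3 (0.0203%). Of the 83, 13 lay below 1, 57 between 1 and 2, and 13 at 2 or more, whereas the median over all tested genes was 0.11. All 86 had effects that did not overlap between the lines, that is, every difference between a deltaNp63 and a mock library of one line lay above every such difference of the other, as did 31.7% of all tested genes in either direction and 24.3% in the positive one. Without the second AsPC-1 deltaNp63 library 2196 genes passed, including all 86, and without the first 71 passed, including 66 of the 86. Leaving out any other library of the 8 gave between 44 and 58. In each such fit the group left with 1 library adds nothing to the estimate of spread and is assumed to vary like the other groups.

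The difference came largely from falls in AsPC-1. Apart from TP63, 82 genes had a positive difference, and 78 of them fell with deltaNp63 in AsPC-1 by the test within that line, in which 7.14% of all tested genes passed, 6.51% falling and 0.637% rising. That test shares its libraries with the interaction, and all genes of AsPC-1 were shifted by a median of -0.12. The library medians were 3.681 and 3.672 with mock and 3.416 and 3.522 with deltaNp63, in log2(TPM + 1). The 1055 genes that passed in AsPC-1 became 419 with median centring, 199 with quantile normalization, 122 with only the 8 libraries fitted, 4057 without the second AsPC-1 deltaNp63 library and 98 to 393 without another library. The AsPC-1 falls of the 78 genes ranged from -2.91 to -0.52 with a median of -1.25, and their TPM in mock was between 1.44 and 9.18 times that with deltaNp63 (median 2.52). Both AsPC-1 deltaNp63 libraries lay below both mock libraries for all 78, but the 78 were chosen by falls in these same libraries, so this adds no support. In PANC-1 none of the 78 passed the test within that line, in which 6 of the tested genes passed (0.0406%), and their effects there ran from -0.14 to 0.55 with a median of 0.06. For 68 of the 78 the PANC-1 effect was within 0.2 of 0, and for 52 the PANC-1 mock and deltaNp63 libraries overlapped. The shares over all tested genes are not given here, and the PANC-1 median over all of them was -0.02. Relative to the mock mean of the line, the median of the 78 genes was -1.36 and -1.23 in the AsPC-1 deltaNp63 libraries and 0.01 and 0.12 in those of PANC-1.

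**Figure D1:**
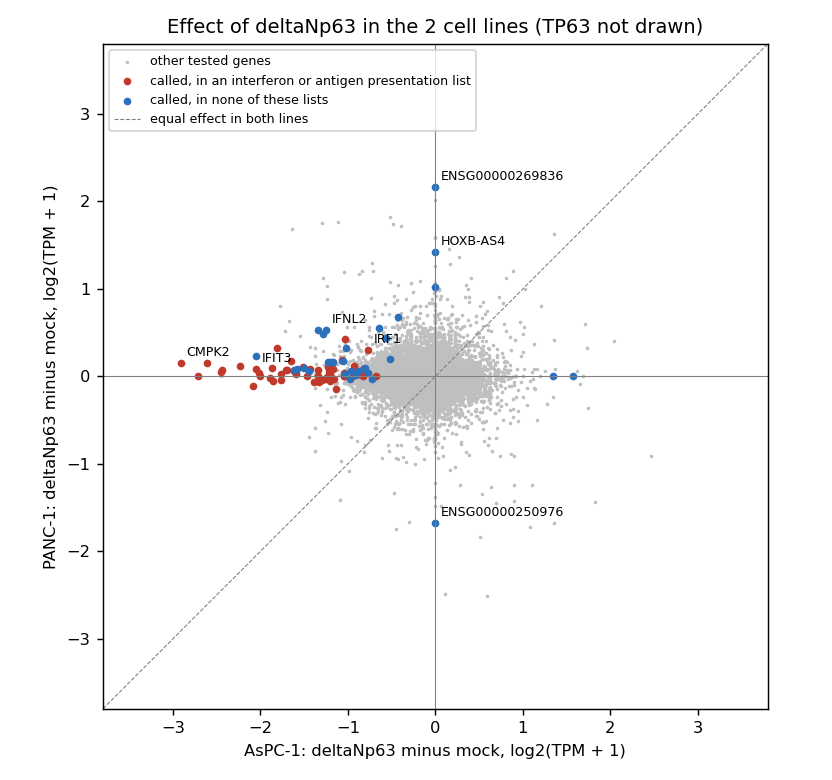
Effect of deltaNp63 on each tested gene in AsPC-1 (x axis) and PANC-1 (y axis), as deltaNp63 minus mock in log2(TPM + 1). Points are genes, with TP63 left out: grey where the lines did not differ by the test, red where they did and the gene is in an interferon or antigen presentation list, blue where they did and it is in none of these. Most coloured points lie to the left along the horizontal line, where the PANC-1 effect is near 0.

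**Figure D2:**
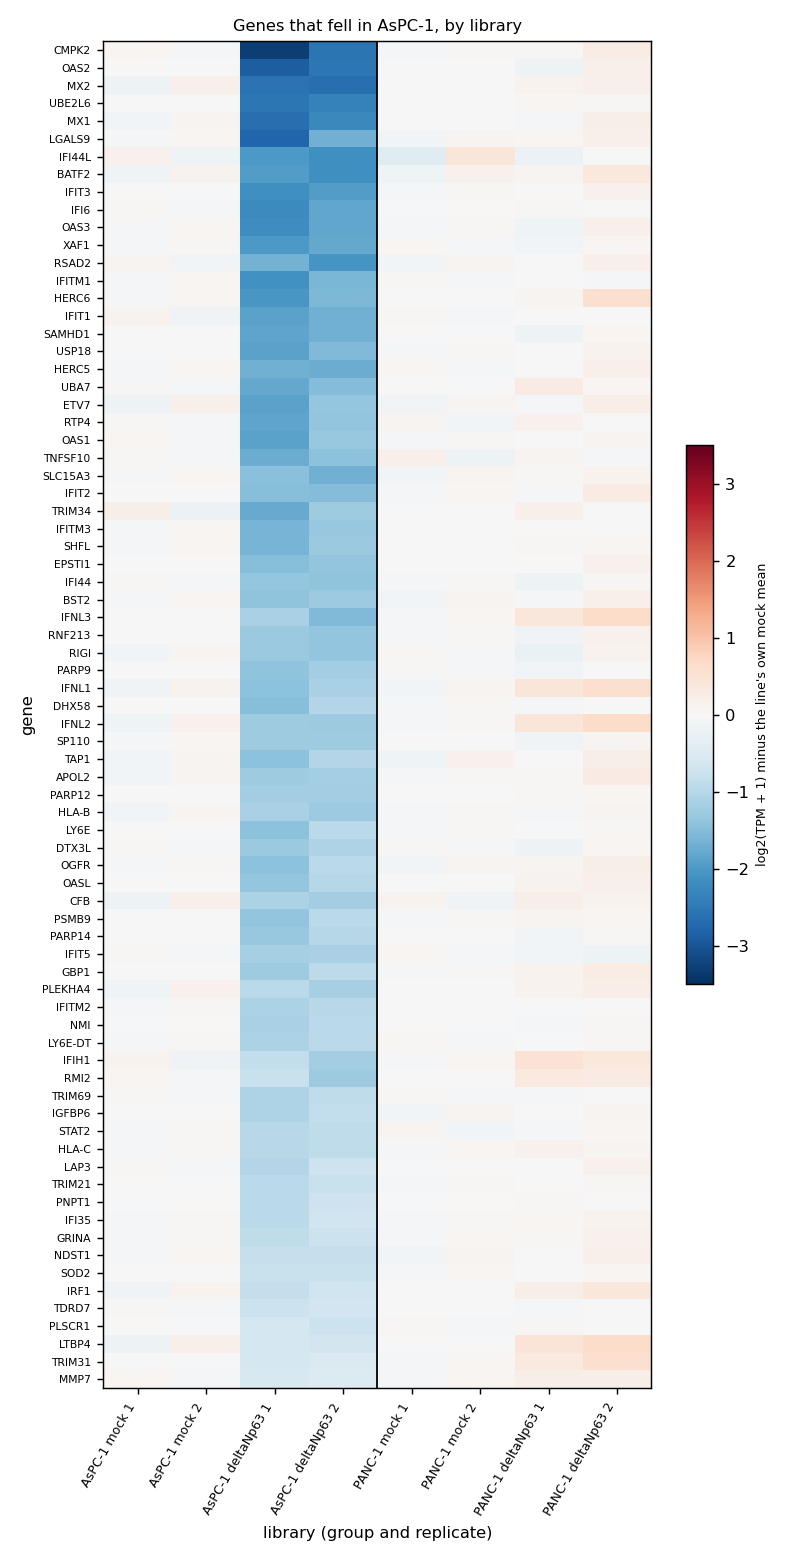
Genes that fell in AsPC-1 and differed between the lines, 76 of the 78 (rows, ordered by their AsPC-1 effect) in the 8 libraries (columns), as log2(TPM + 1) minus the mock mean of the same line. Both AsPC-1 deltaNp63 columns are blue throughout, with medians of -1.36 and -1.23 over the 78, while the PANC-1 deltaNp63 columns have medians of 0.01 and 0.12.

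The lines did not start from equal levels. In mock cells 59 of the 78 genes were higher in PANC-1 and 19 were lower, and 2 of the 19, TRIM31 and LY6E-DT, were under 1 TPM in PANC-1. The share over all tested genes is not given here. The mock library medians over all tested genes were also higher in PANC-1. In log2(TPM + 1) they were 3.85 and 3.85, against 3.681 and 3.672 in AsPC-1. The median ratio of PANC-1 to AsPC-1 was 1.77 with mock and 5.05 with deltaNp63. After deltaNp63, 69 of the 78 were higher in PANC-1. The 78 were chosen by a fall in AsPC-1 and a positive difference. The wider ratio and the higher count with deltaNp63 follow from that choice and add no support.

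Of 7 lists of interferon and antigen presentation genes, which hold 137 genes, 127 were tested. The lists were drawn up with earlier results of these data known, so their direction is not independent evidence. The lines differed for 53 of the 127, all with a positive difference, against 33 of the other 14640 tested genes (0.225%). The median difference was 0.90 over the 127 genes, from a median of -0.83 in AsPC-1 and 0.03 in PANC-1. In AsPC-1 90 of the 127 fell and 0 rose by the test within that line, against 6.51% falling and 0.637% rising among all tested genes. In PANC-1 0 of the 127 passed, against 0.0406% of all tested genes, which does not show that they were unchanged. Without the second AsPC-1 deltaNp63 library the 53 became 81, and without the first 51.

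The letters of the response element were searched near the starts of these genes. Among the 78 genes that fell, 60 had a RefSeq promoter (GRCh38.p14, from 250 bases before to 50 after the start), and 36 of these (60%) held at least 1 match to GAAANNGAAA or, on the other strand, TTTCNNTTTC. The share was 3.86% over the 10824 tested genes with a promoter and 4.38% over all 27305 genes of that table, each gene counted by its promoter with the most matches. The STAT dimer site TTCNNNGAA, which reads alike on both strands, was found for 15 of the 60 genes (25%) and for 8.43% of the tested genes. A match is a description of the letters and not evidence of binding. The 250 bases before the start are shown for 4 genes chosen after their values were seen: IFIT3, which had the smallest adjusted p, IFI6 and HERC5, which hold 3 matches each, and IFNL1, an interferon. Capitals mark the matches, and neighbouring matches overlap in HERC5 and IFNL1.
IFIT3, chr10:89327747-89327996, plus strand: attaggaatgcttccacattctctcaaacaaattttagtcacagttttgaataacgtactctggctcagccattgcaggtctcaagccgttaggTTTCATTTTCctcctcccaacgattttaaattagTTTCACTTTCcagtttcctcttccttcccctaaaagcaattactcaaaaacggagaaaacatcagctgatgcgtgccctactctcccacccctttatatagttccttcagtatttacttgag
IFI6, chr1:27672193-27672442, minus strand: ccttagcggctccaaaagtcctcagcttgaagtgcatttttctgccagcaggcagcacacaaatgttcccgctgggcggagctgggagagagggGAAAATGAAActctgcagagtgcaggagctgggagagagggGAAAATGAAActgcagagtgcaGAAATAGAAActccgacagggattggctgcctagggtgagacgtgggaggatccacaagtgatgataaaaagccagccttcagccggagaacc
HERC5, chr4:88456869-88457118, plus strand: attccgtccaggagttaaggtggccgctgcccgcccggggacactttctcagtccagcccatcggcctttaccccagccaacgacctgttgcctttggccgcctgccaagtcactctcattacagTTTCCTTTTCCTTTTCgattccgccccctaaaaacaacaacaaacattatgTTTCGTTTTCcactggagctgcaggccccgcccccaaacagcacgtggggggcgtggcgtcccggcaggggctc
IFNL1, chr19:39296157-39296406, plus strand: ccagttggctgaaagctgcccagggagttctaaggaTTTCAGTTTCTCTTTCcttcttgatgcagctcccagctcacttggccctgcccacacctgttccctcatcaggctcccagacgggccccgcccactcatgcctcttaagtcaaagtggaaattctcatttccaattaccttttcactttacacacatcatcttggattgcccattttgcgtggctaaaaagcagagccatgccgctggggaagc

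The ligands differed both in their effect and in their starting level. IFNL1, IFNL2 and IFNL3 encode lambda interferons, lie within a cluster on chromosome 19 and were picked out after their values were seen. IFNL1 (ENSG00000182393, 39296407 to 39298673 in hg38) was at 5.99 and 7.31 TPM in the AsPC-1 mock libraries and at 1.83 and 2.46 TPM in the deltaNp63 libraries. In PANC-1 it was at 778 and 881 TPM with mock and at 1103 and 1220 TPM with deltaNp63. Both deltaNp63 libraries thus lay below mock in AsPC-1 and above mock in PANC-1. IFNL1 fell by 1.28 in AsPC-1 (limma adjusted p 0.00129), its PANC-1 effect was 0.49 (95% interval 0.17 to 0.80, limma adjusted p 1 over all genes), and the effects differed by 1.77 (SE 0.2, limma adjusted p 0.00356). IFNL2 differed by 1.78 (limma adjusted p 0.00154) and IFNL3 by 1.87 (limma adjusted p 0.00552), with the same order of libraries. Since IFNL2 and IFNL3 are near-identical copies, the split of reads between them is uncertain. In mock cells the PANC-1 mean was 124.8 times that of AsPC-1 for IFNL1 and 42.2 times for IFNL2.

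Values for receptors and kinases of the pathway lay on both sides of 0. The 12 tested genes of this group also include SOCS1, SOCS3 and USP18, which are neither receptors nor kinases. USP18 alone differed between the lines, so no receptor or kinase did, and the median difference was -0.04. USP18 (ENSG00000184979, chromosome 22, 18150118 to 18177397) removes ISG15 from proteins and restrains the type I interferon receptor. Its libraries gave 59.8 and 61.2 TPM in the AsPC-1 mock libraries and at 15.7 and 20.1 TPM in the deltaNp63 libraries, and at 109 and 116 TPM and 112 and 124 TPM in PANC-1. It fell by 1.71 on the log2 scale in AsPC-1 and differed between the lines by 1.78 (SE 0.186, limma adjusted p 0.00246). The lambda receptor chain IFNLR1 had mock levels of 5.13 ± 0.141 TPM (SD, n = 2) for AsPC-1 but 0.999 ± 0.307 TPM for PANC-1. Its difference was 0.00 (SE 0.278, limma adjusted p 0.996). Its partner chain IL10RB had a difference of -0.30 (limma adjusted p 0.324), JAK1 of 0.02 (limma adjusted p 0.974) and TYK2 of 0.70 (limma adjusted p 0.179). The lowest value of the group was -0.81 for the kinase JAK2 (limma adjusted p 0.299), opposite in sign to USP18.

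Among the 14 tested STAT and IRF transcription factors, 3 differed between the lines and the median difference was 0.40. STAT2, a subunit of the interferon-stimulated complex, was at 23.2 and 24.6 TPM in the AsPC-1 mock libraries and at 11.6 and 12.4 TPM in the deltaNp63 libraries. In PANC-1 its values were 58.6 and 51.9 TPM with mock and 52.9 and 58.1 TPM with deltaNp63, so the groups overlapped there. The lines differed by 0.94 (SE 0.138, limma adjusted p 0.0141). IRF1, which also activates MHC class I genes, was at 125 and 150 TPM in the AsPC-1 mock libraries and at 76.4 and 83.8 TPM in the deltaNp63 libraries, against 120 and 120 TPM and 138 and 159 TPM in PANC-1. In IRF1 the deltaNp63 libraries were below mock in AsPC-1 and above mock in PANC-1, and the lines differed by 1.07 (SE 0.162, limma adjusted p 0.017). The PANC-1 effect of 0.30 did not pass within that line (limma adjusted p 1). Leaving out either PANC-1 mock library, the second AsPC-1 mock library, or the first AsPC-1 or second PANC-1 deltaNp63 library ended the call for IRF1 (0.94 to 1.07, limma adjusted p up to 0.103). For STAT2 either AsPC-1 mock library, the second PANC-1 mock library or the second PANC-1 deltaNp63 library did so (0.86 to 0.98, limma adjusted p up to 0.0925). Fitting only the 8 libraries ended both calls, at a limma adjusted p of 0.0626 for IRF1 and 0.0738 for STAT2. IRF9, the DNA-binding partner of STAT2, had a difference of 0.22 (limma adjusted p 0.513), and IRF7 one of 0.80 (limma adjusted p 0.132).

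Of the 13 tested nucleic acid sensors and adaptors, 3 differed, and all 3 belong to the RIG-I-like helicases, which detect RNA in the cytosol. RIGI (ENSG00000107201, chromosome 9, 32455302 to 32526208) was at 63.4 and 71.6 TPM in the AsPC-1 mock libraries and at 26.8 and 25.5 TPM in the deltaNp63 libraries, and at 167 and 153 TPM and 135 and 174 TPM in PANC-1. It fell by 1.33 in AsPC-1 and differed by 1.27 (SE 0.178, limma adjusted p 0.0113). IFIH1 differed by 1.46 (SE 0.227, limma adjusted p 0.0205), with 10.2 and 8.42 TPM against 4.70 and 3.46 TPM in AsPC-1, and 4.60 and 5.22 TPM against 7.31 and 6.60 TPM in PANC-1. As with IRF1, its deltaNp63 libraries lay on opposite sides of mock in the 2 lines. DHX58 differed by 1.23 (SE 0.222, limma adjusted p 0.0484), and the call was lost under median centring (1.04, limma adjusted p 0.0592) and without any library but the second of AsPC-1 deltaNp63 (0.99 to 1.25, limma adjusted p up to 0.231). IFIH1 lost its call under median centring (1.27, limma adjusted p 0.0955), under quantile normalization (1.25, limma adjusted p 0.0947) and without any single mock or PANC-1 deltaNp63 library (1.33 to 1.58, limma adjusted p up to 0.126). With only the 8 libraries fitted, the calls were lost for DHX58 (limma adjusted p 0.111), IFIH1 (limma adjusted p 0.0678) and RIGI (limma adjusted p 0.0551). RIGI lost its call also without the second mock library of either line (1.18 and 1.21, limma adjusted p 0.0698 and 0.0721). The double-stranded RNA receptor TLR3 had a difference of 1.15 (limma adjusted p 0.158), the DNA-pathway adaptor STING1 of 0.54 (limma adjusted p 0.321) and the RIG-I adaptor MAVS of 0.34 (limma adjusted p 0.364).

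Antiviral effectors formed the largest group, with 38 of 58 tested genes differing, all positively, and a median difference of 1.24 from -1.21 in AsPC-1 and 0.02 in PANC-1. In AsPC-1 52 of the 58 fell, against 6.51% of all tested genes. IFIT3 (ENSG00000119917, chromosome 10, 89327307 to 89377473), a member of the family that binds foreign RNA ends, was at 131 and 131 TPM in the AsPC-1 mock libraries and at 28.6 and 33.3 TPM in the deltaNp63 libraries. In PANC-1 it was at 537 and 570 TPM and at 553 and 618 TPM, which overlap. The lines differed by 2.13 (SE 0.139, limma adjusted p 0.000568), the smallest adjusted p of all genes. Its difference ranged from 1.94 to 2.41 over the alternative settings, with limma adjusted p from 8.21e-05 to 0.00858.

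The MX proteins are GTPases that block viral nucleocapsids. MX1 (ENSG00000157601, chromosome 21, 41420020 to 41470071) was at 228 and 256 TPM in the AsPC-1 mock libraries and at 37.8 and 50 TPM in the deltaNp63 libraries, and at 429 and 439 TPM and 411 and 503 TPM in PANC-1. It differed by 2.51 (SE 0.248, limma adjusted p 0.00189), next to 2.76 for MX2 and 3.07 for CMPK2, the mitochondrial nucleotide kinase beside RSAD2. The family of OAS enzymes makes the second messenger that activates RNase L. OAS3 was at 168 and 183 TPM against 37.9 and 48.9 TPM in AsPC-1, and at 207 and 218 TPM against 189 and 241 TPM in PANC-1, a difference of 2.01 (SE 0.233, limma adjusted p 0.00396), beside 2.71 for OAS2. Reads of CMPK2 and RSAD2, and of the OAS genes and an antisense gene across them, cannot be fully told apart, because the quantifier's use of strand is not given in the sources used here.

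IFI6, an inhibitor of apoptosis and of flavivirus replication, was one of the most abundant of these mRNAs. Its libraries gave 1243 and 1195 TPM in the AsPC-1 mock libraries and at 261 and 344 TPM in the deltaNp63 libraries, against 3184 and 3180 TPM and 3300 and 3221 TPM in PANC-1. Its difference was 2.06 (SE 0.178, limma adjusted p 0.00154). RSAD2 (viperin, which makes a chain-terminating nucleotide) differed by 1.97 (SE 0.229, limma adjusted p 0.00396) and XAF1, a proapoptotic factor, by 1.87 (SE 0.204, limma adjusted p 0.00308). The XAF1 mock mean was higher for AsPC-1, at 58.3 ± 1.68 TPM (SD, n = 2), than for PANC-1, at 44.9 ± 2.65 TPM, and with deltaNp63 the means were 15.1 ± 1.79 and 44.4 ± 3.81 TPM. MX2 and OAS2 had PANC-1 to AsPC-1 mock ratios of 1.04 and 1.06.

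Other effectors were less firm. IFI44L differed by 1.96 (SE 0.333, limma adjusted p 0.0345), with 9.11 and 7.17 TPM falling to 1.24 and 1.06 TPM in AsPC-1, against 1.21 and 2.96 TPM and 1.55 and 1.93 TPM in PANC-1, where its mock level was already low. LGALS9, the galectin that binds TIM-3, differed by 2.35 (SE 0.423, limma adjusted p 0.0475), and its AsPC-1 deltaNp63 libraries were far apart at 8.14 and 18.7 TPM. Median centring ended the calls for IFI44L (limma adjusted p 0.0658) and LGALS9 (limma adjusted p 0.0541), as did fitting only the 8 libraries (limma adjusted p 0.136 and 0.121). So did leaving out any single library other than the second of AsPC-1 deltaNp63 or those of PANC-1 mock for IFI44L (1.81 to 2.12, limma adjusted p up to 0.196), and any mock or PANC-1 deltaNp63 library for LGALS9 (2.25 to 2.44, limma adjusted p up to 0.231). BATF2, an interferon-induced AP-1 family factor outside the lists, was at 20.6 and 24.2 TPM against 4.97 and 4.29 TPM in AsPC-1 and at 37.8 and 47.2 TPM against 45.0 and 54.8 TPM in PANC-1. It differed by 2.28 (SE 0.331, limma adjusted p 0.0137), and its call was lost without any single mock or PANC-1 deltaNp63 library (2.12 to 2.44, limma adjusted p up to 0.103).

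Conjugation of ISG15, a ubiquitin-like modifier, needs an activating, a conjugating and a ligating enzyme, and 4 of the 5 tested genes of this system differed. ISG15 itself was not analysed here. UBE2L6 (ENSG00000156587, chromosome 11, 57551656 to 57568284), the conjugating enzyme, was at 28.7 and 29.3 TPM in the AsPC-1 mock libraries and at 4.18 and 4.83 TPM in the deltaNp63 libraries. In PANC-1 it was at 184 and 189 TPM and at 195 and 190 TPM. The lines differed by 2.50 (SE 0.226, limma adjusted p 0.00166). The activating enzyme UBA7 differed by 1.83 (SE 0.188, limma adjusted p 0.00237) and the ligase HERC5 by 1.77 (SE 0.183, limma adjusted p 0.00237).

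HERC6, a relative of HERC5, differed by 2.14 (SE 0.303, limma adjusted p 0.0118) from an opposite starting point. Its libraries gave 47.3 and 52.6 TPM in AsPC-1 with mock and at 3.17 and 3.14 TPM in PANC-1 with mock, and at 11.4 and 16.1 TPM and 3.45 and 5.13 TPM with deltaNp63. The HERC6 call was lost without any single mock library or the second PANC-1 deltaNp63 library (1.90 to 2.21, limma adjusted p up to 0.0742). The remaining gene, the ubiquitin ligase ARIH1, had a difference of -0.18 (limma adjusted p 0.527) and lay between 25.4 and 31.0 TPM in all 8 libraries.

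MHC class I genes shifted less. Of 20 tested genes of antigen presentation, 4 differed, and the median difference was 0.55. In AsPC-1 16 of the 20 fell, against 6.51% of all tested genes. HLA-B (ENSG00000234745, chromosome 6, 31353872 to 31367067), a classical class I heavy chain, was at 57.9 and 66.0 TPM in the AsPC-1 mock libraries and at 27.4 and 24.9 TPM in the deltaNp63 libraries. In PANC-1 it was at 1176 and 1235 TPM and at 1182 and 1287 TPM. The difference was 1.25 (SE 0.166, limma adjusted p 0.00876), and HLA-C differed by 1.05 (SE 0.134, limma adjusted p 0.00661). The HLA-B call was lost without the second AsPC-1 mock, the first PANC-1 mock or the second PANC-1 deltaNp63 library (1.16 to 1.21, limma adjusted p up to 0.0689). For the light chain B2M the difference was 0.44 (limma adjusted p 0.221). HLA genes are polymorphic and alike in sequence, so their values depend on how reads were assigned.

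TAP1, which pumps peptides into the endoplasmic reticulum, differed by 1.34 (SE 0.24, limma adjusted p 0.0475), and PSMB9, a subunit of the immunoproteasome, by 1.24 (SE 0.179, limma adjusted p 0.0127). The TAP1 libraries were at 51.8 and 58.7 TPM against 19.7 and 26.8 TPM in AsPC-1, and at 175 and 212 TPM against 194 and 223 TPM in PANC-1. The call for TAP1 was lost under median centring (1.15, limma adjusted p 0.0592) and without any library but the second of AsPC-1 deltaNp63 (1.12 to 1.47, limma adjusted p up to 0.231). That for PSMB9 was lost without any single mock or PANC-1 deltaNp63 library (1.21 to 1.28, limma adjusted p up to 0.0853). With only the 8 libraries fitted, neither TAP1 (limma adjusted p 0.106) nor PSMB9 (limma adjusted p 0.0665) passed. TAP1 and PSMB9 lie head to head and overlap in the annotation. None of the 5 tested APOBEC3 cytidine deaminases differed, with a median of 0.52, and the largest values were 0.76 for APOBEC3F (limma adjusted p 0.211) and 0.60 for APOBEC3C (limma adjusted p 0.262). Without the second AsPC-1 deltaNp63 library both passed, at 0.97 for APOBEC3F (limma adjusted p 0.0156) and 0.90 for APOBEC3C (limma adjusted p 0.00849), and without the first they were 0.55 and 0.30.

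**Figure D3:**
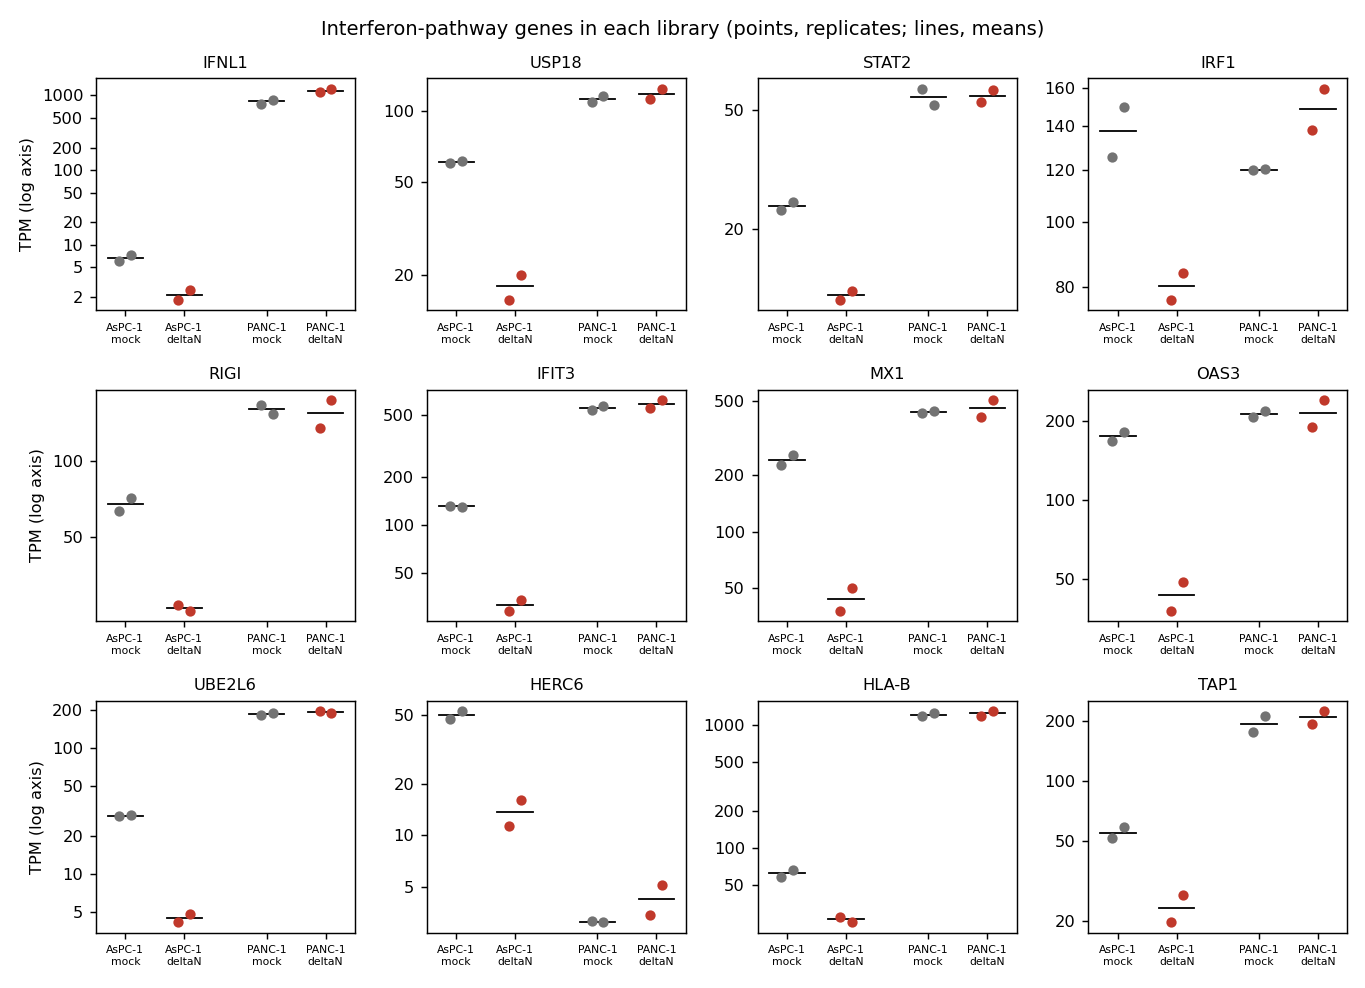
TPM of 12 genes of the interferon pathway in each of the 8 libraries, on log axes with a separate scale for each gene. Points are replicates and lines are means of 2. In every panel the AsPC-1 deltaNp63 points lie below the AsPC-1 mock points. The PANC-1 mock and deltaNp63 points overlap in range or, for IFNL1, IRF1, UBE2L6 and HERC6, are higher with deltaNp63.

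Among the 78 genes that fell in AsPC-1, 25 belonged to none of the 20 lists. They were named after their values were seen. Several are known from the interferon response, such as APOL2 (difference 1.39), SLC15A3 (1.66), SHFL (1.51) and ETV7 (1.69). Others are better known elsewhere. SOD2, the manganese superoxide dismutase of mitochondria, was at 58.6 and 57.1 TPM against 33.6 and 33.2 TPM in AsPC-1 and at 422 and 465 TPM against 443 and 469 TPM in PANC-1, a difference of 0.81 (limma adjusted p 0.0159). IGFBP6, a binder of insulin-like growth factor II, differed by 1.02 (limma adjusted p 0.0393), and NDST1, an enzyme of heparan sulfate synthesis, by 0.91 (limma adjusted p 0.0237). MMP7, the matrix protease matrilysin, was at 456 and 408 TPM against 294 and 308 TPM in AsPC-1 and at only 3.41 to 4.36 TPM in PANC-1, with a difference of 0.72 (limma adjusted p 0.0399). LTBP4, a binder of latent TGF-beta, differed by 1.19 (limma adjusted p 0.0379), and its libraries were at 9.04 and 11.8 TPM against 6.36 and 6.22 TPM in AsPC-1 and at 8.98 and 9.02 TPM against 12.7 and 14.7 TPM in PANC-1.

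Of the 86 genes, 8 were not protein-coding. The 2 largest differences among these were 2.16 for ENSG00000269836 (limma adjusted p 0.0248) and -1.68 for ENSG00000250976, whose limma adjusted p of 0.05 was just under the threshold before rounding. ENSG00000269836 was listed at 0 in 6 libraries and at 5.20 and 2.22 TPM in PANC-1 with deltaNp63. ENSG00000250976 was listed at 0 in 6 libraries and at 3.19 and 1.44 TPM in PANC-1 with mock. Both genes were also at 0 with TAp63, so each passed the filter only through the group in which it was above 0. Their calls are therefore not independent of that filter. The calls were lost without the first AsPC-1 deltaNp63 library or any AsPC-1 mock library for both, without any PANC-1 mock library for ENSG00000269836 (limma adjusted p up to 0.116), and without any PANC-1 deltaNp63 library for ENSG00000250976 (limma adjusted p up to 0.196). The call for ENSG00000250976 was also lost under limma robust (limma adjusted p 0.051), quantile normalization (limma adjusted p 0.0903) and the fit of only the 8 libraries (limma adjusted p 0.179), and that for ENSG00000269836 under both scalings (limma adjusted p 0.0658 with median centring and 0.0636 with quantile normalization) and the fit of only the 8 libraries (limma adjusted p 0.112). Both are long noncoding RNAs that overlap a coding gene, MYO9B and CACNA1G. The other 2 genes with a negative difference were the processed pseudogenes ENSG00000230355 and RPL39P15, which were listed at 0 in all but the AsPC-1 deltaNp63 libraries, at 1.87 and 2.06 TPM and at 1.47 and 1.6 TPM. Among the 8 libraries they reached the filter level only in the group that sets their difference, so their calls are not independent of the filter either. With a mean of at least 5 TPM required, 88 genes passed and 0 had a negative difference, so no abundant gene was among the negative ones.

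The remaining lists held no gene that differed between the lines with all libraries, though for many of the values below the call turned on the second AsPC-1 deltaNp63 library. Among 31 tested basal and squamous genes the median difference was 0.07, close to the 0.11 of all genes, and S100A2, a calcium-binding protein of basal cells and a known p63 target, had the largest value at -0.77 (SE 0.403, limma adjusted p 0.363). Its libraries gave 38.1 and 51.1 TPM against 144 and 66.7 TPM in AsPC-1 and at 35.2 and 33.5 TPM against 46.3 and 43.0 TPM in PANC-1. The AsPC-1 deltaNp63 replicates of S100A2 were far apart, and it was -1.32 without the second (limma adjusted p 0.0087) and -0.21 without the first (limma adjusted p 0.792). The keratin KRT16 followed at 0.63 (limma adjusted p 0.434), with 1.20 without the second (limma adjusted p 0.00678) and 0.07 without the first. Among 36 p53 family targets the median was 0.17, and the largest values were 1.08 for PHLDA3 (limma adjusted p 0.111) and 0.75 for the proapoptotic BBC3 (limma adjusted p 0.248). Without the second AsPC-1 deltaNp63 library both passed, at 1.26 for PHLDA3 (limma adjusted p 0.0117) and 1.05 for BBC3 (limma adjusted p 0.0194). Without the first, BBC3 was 0.46.

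Secreted factors had a median of 0.24 over 33 cytokines and chemokines, led by the macrophage growth factor CSF1 at 0.86 (limma adjusted p 0.1) and the interferon-induced chemokine CXCL10 at 0.85 (limma adjusted p 0.243). CSF1 passed without the second AsPC-1 deltaNp63 library (0.86, limma adjusted p 0.0254). CXCL10 was at most 2.27 TPM in any of the 8 libraries, and its value was 0.56 without the second PANC-1 mock library. The 33 TGF-beta pathway genes had a median of 0.18, with the inhibitor SMAD6 at 1.25 (limma adjusted p 0.374) and BMP4 at 0.93 (limma adjusted p 0.271). The SMAD6 replicates in AsPC-1 deltaNp63 were 0.376 and 4.65 TPM. Without the second of these libraries SMAD6 was 2.27 (limma adjusted p 0.00169) and BMP4 1.35 (limma adjusted p 0.0199), and without the first they were 0.23 and 0.50.

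Lists of cell identity gave medians of -0.02 for 19 regulators of epithelial-mesenchymal transition and cadherins, 0.21 for 25 classical and endoderm genes and 0.29 for 9 epithelial markers of pancreatic carcinoma. Values among them were -0.77 for SNAI2, the transcriptional repressor Slug (limma adjusted p 0.243), -0.77 for SPARC (limma adjusted p 0.285), -1.50 for the trefoil factor TFF3 (limma adjusted p 0.119), -0.48 for CDH1 (limma adjusted p 0.307) and 0.44 for KRT8 (limma adjusted p 0.464). SNAI2 was abundant only in AsPC-1, at 206 and 283 TPM with mock and 496 and 332 TPM with deltaNp63, against at most 0.820 TPM in PANC-1. TFF3 was low throughout, at most 3.32 TPM in any of the 8 libraries. Its difference ranged from -3.36 to -0.81 over the alternative settings. Without the second AsPC-1 deltaNp63 library SNAI2 was -1.06 (limma adjusted p 0.0204), TFF3 -1.46 (limma adjusted p 0.0392) and KRT8 0.85 (limma adjusted p 0.00891). Without the first, SNAI2 was -0.48, SPARC -0.48 and KRT8 0.02. Of the markers of other cell types 3 were tested, with a median of 0.10 and values of -0.32 for LUM (limma adjusted p 0.52) and 0.30 for ITGAM (limma adjusted p 0.701). Leaving out 1 library moved LUM between -0.10 and -0.54 and ITGAM between 0.02 and 0.59, with no call.

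Proliferation genes had the highest median among the lists without a differing gene and outside the interferon pathway, at 0.38 over 40 cell cycle and replication genes. It came from a median of -0.38 in AsPC-1, where 9 of the 40 fell, and -0.02 in PANC-1. Over all tested genes the AsPC-1 median was -0.12, with 6.51% falling, and the PANC-1 median was -0.02. The largest values were 1.14 for the replicative helicase subunit MCM3 (limma adjusted p 0.258) and 1.07 for the licensing factor CDT1 (limma adjusted p 0.214). The replicates of MCM3 in AsPC-1 deltaNp63 were 8.92 and 22.4 TPM, against 37.6 and 29.2 TPM with mock, so the first of these libraries lay well below the second. Without the second, MCM3 was 1.76 (limma adjusted p 0.00354) and CDT1 1.5 (limma adjusted p 0.0033), and without the first they were 0.52 and 0.64.

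In metabolic and stress lists no member passed with all libraries. The median was 0.12 for 28 genes of cholesterol and fatty acid synthesis, with 0.97 for FASN, the fatty acid synthase (limma adjusted p 0.284), and 0.27 for 21 genes of the integrated stress response, with 0.42 for CEBPB (limma adjusted p 0.329) and 0.41 for PSAT1 (limma adjusted p 0.372). Without the second AsPC-1 deltaNp63 library FASN was 1.51 (limma adjusted p 0.00833) and PSAT1 0.71 (limma adjusted p 0.0108), and without the first they were 0.43 and 0.12. The 8 metallothioneins had a median of -0.03, with 0.36 for MT1M (limma adjusted p 0.522) and -0.35 for MT1X (limma adjusted p 0.342). The 13 mitochondrially encoded mRNAs had a median of -0.01 and ranged only from -0.13 for MT-CO3 (limma adjusted p 0.73) to 0.10 for MT-ND5 (limma adjusted p 0.843).

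**Figure D4:**
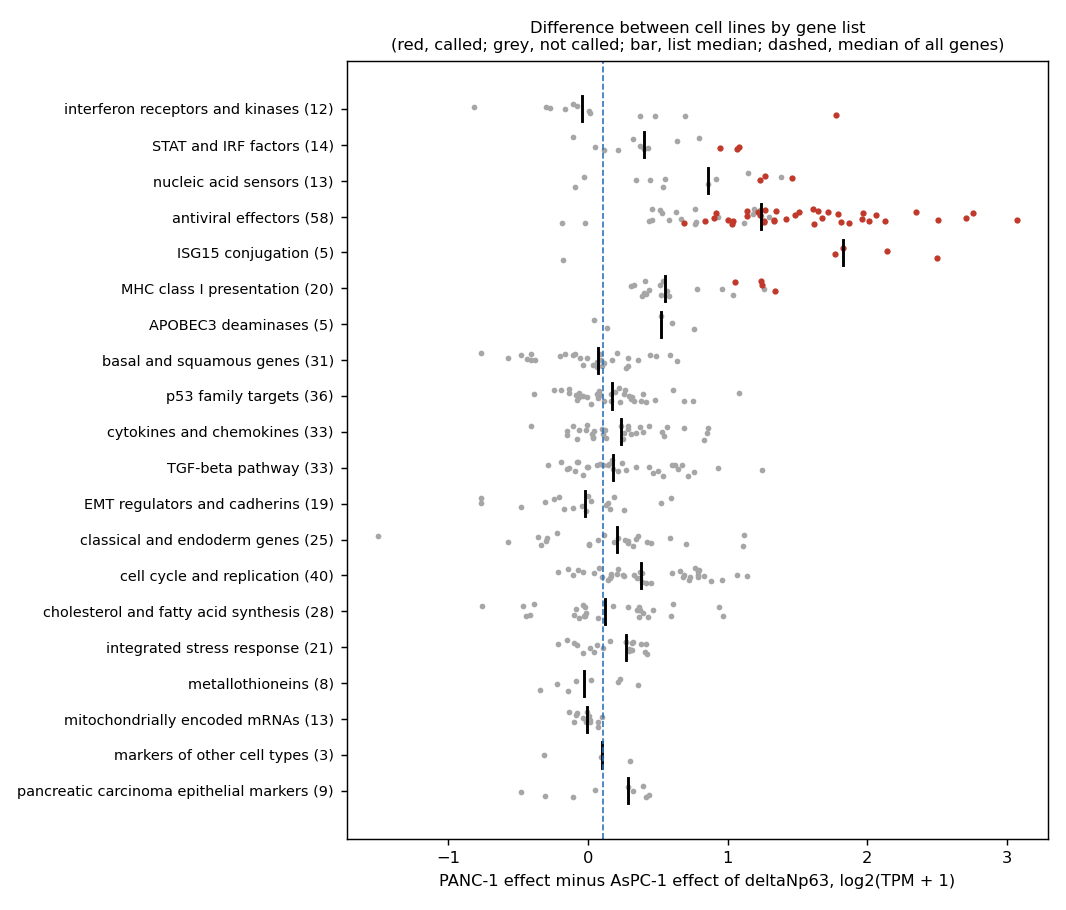
Difference between the lines in the deltaNp63 effect (x axis, PANC-1 minus AsPC-1, log2(TPM + 1)) for the tested members of 20 gene lists, with their number in parentheses. Red points passed the interaction test, grey points did not, black bars are list medians and the dashed line is the median of all tested genes, 0.11; red points occur only in the upper 6 lists.

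TAp63 was compared in the same way, with the same mock libraries, so its values are not independent of those above. The lines differed in the TAp63 effect for 11 genes (0.0745%). The differences for deltaNp63 and TAp63 were 2.13 and 1.38 for IFIT3 (limma adjusted p 0.0285 for TAp63), 2.50 and 1.83 for UBE2L6 (limma adjusted p 0.0285), 2.06 and 1.46 for IFI6 (limma adjusted p 0.0285) and 1.66 and 1.57 for SLC15A3 (limma adjusted p 0.0285). They were 2.51 and 1.65 for MX1 (limma adjusted p 0.0628). The TAp63 value was the smaller in each of these 5 genes, but all 5 had passed the deltaNp63 test. That choice by itself favours larger deltaNp63 values. For CXCL10, which passed neither test, the differences for deltaNp63 and TAp63 were 0.85 and 0.91. The 2 constructs also reached unequal TP63 levels. Mean TP63 in the deltaNp63 and TAp63 libraries was 297.7 and 136.0 TPM in AsPC-1, and 1001.0 and 333.0 TPM in PANC-1. Whether the constructs differ in the gap between the lines, or whether TP63 level plays a part, was not tested.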

How the data were processed

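RNA was measured in 12 libraries, of which the 8 with mock or deltaNp63 form the contrast. The kit selected mRNA and kept strand, per the labels' protocols. TPM was deposited by the authors for 153329 Ensembl transcripts, and each column sums to 1000000. The quantifier, genome build and annotation are not given in the sources used here. TPM keeps no depth, so no counting error was computed, and precision comes from 2 replicates per group. The labels call them biological replicates without naming separate cultures, so p-values measure the spread between these libraries.

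Transcripts were paired with genes through GENCODE v44 (hg38), which covered 139819 transcripts (91.2%) and 89.6% to 90.5% of each library's TPM, and were summed to 39099 genes. The 14767 genes that reached 1 TPM in 2 or more of the 12 libraries were analysed as log2(TPM + 1), a scale that understates changes of low genes. In limma 3.58.1 (R 4.3.3), 6 group means were estimated, leaving 6 residual degrees of freedom, with eBayes and a trend. Two-sided p-values were adjusted by the Benjamini-Hochberg method over all of them, with a threshold of 0.05. The fit was tested on simulated data.

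The comparison, the 20 gene lists and the settings were chosen with earlier results of these data known. Named were TP63, the 15 largest protein-coding differences that passed, averaged 1 TPM or more and had effects that did not overlap, up to 4 passing members of each list or, with none, the 2 largest values, and the 2 largest among genes that are not protein-coding. Other names were chosen after their values were seen, as was the motif search. Some results for single genes are not reported here, though these genes remain in all counts and medians. Alternatives were quantile normalization, median centring, 3 other filters, a pseudocount of 0.1, limma without trend or robust, only the 8 libraries, a replicate block, transcript rows, an absolute difference of at least 1, and leaving out each library.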

Additional observations from a re-analysis of the deposited data

Results flagged for a closer look

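Every result here was drawn out because the effect of deltaNp63 differed between AsPC-1 and PANC-1 by the interaction test of limma, over 86 genes in all. Genes named among them with a difference of at least 2 were CMPK2 (3.07), MX2 (2.76), OAS2 (2.71), TP63 (2.61), MX1 (2.51), UBE2L6 (2.50), LGALS9 (2.35), BATF2 (2.28), ENSG00000269836 (2.16), HERC6 (2.14), IFIT3 (2.13), IFI6 (2.06) and OAS3 (2.01). Smaller positive differences were those of RSAD2 (1.97), IFI44L (1.96), XAF1 (1.87), UBA7 (1.83), USP18 (1.78), HERC5 (1.77), IFIH1 (1.46), TAP1 (1.34), RIGI (1.27), HLA-B (1.25), PSMB9 (1.24), DHX58 (1.23), IRF1 (1.07), HLA-C (1.05) and STAT2 (0.94). The negative one was ENSG00000250976 (-1.68). The sizes are PANC-1 minus AsPC-1 in log2(TPM + 1).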

How the results depend on the processing

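The 86 genes kept their sign under every gene-level setting in which they were tested, and 11 of the 30 named genes that passed did so under all settings. Of the 28 named genes that did not pass, 18 passed under some setting, 17 of them only without the second AsPC-1 deltaNp63 library. Fitting only the 8 libraries gave 49 genes (47 positive), 35 of them in the 7 interferon and antigen presentation lists, and transcript rows gave 38 (36 positive). Negative differences numbered 7 without trend, 0 with a mean of at least 5 TPM or of at least 1 TPM in each line, 6 with median centring, 22 without a filter and 5 with a pseudocount of 0.1. Scaling moved the median difference of all genes from 0.11 to -0.07 with median centring (68 genes, 65 of them shared) and to 0.00 with quantile normalization (69 genes, 68 shared), so values relative to all genes are about 0.1 to 0.2 lower. Leaving out 1 library gave 44 to 2196 genes, 40 to 1791 positive and 2 to 405 negative, and 32 to 81 list members; the extremes of 2196, 1791, 405 and 81 came without the second AsPC-1 deltaNp63 library.

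Within AsPC-1, where 1055 genes passed, the count was 419 with median centring, 225 without a filter, 122 with only the 8 libraries, 199 with quantile normalization, 154 transcript rows, 117 with an absolute effect of at least 1, and 98 to 4057 on leaving out 1 library. Within PANC-1 it was 3 with limma robust, 1 with either stricter filter, 2 with either scaling, 42 without a filter, 10 transcript rows, and 2 to 5 on leaving out 1 library. With the replicate block 95 genes differed between the lines, 75 of them shared, and 57 list members; 1633 passed in AsPC-1 and 1 in PANC-1. It ended the call for ENSG00000250976 (limma adjusted p 0.0718), gave one for PHLDA3 (limma adjusted p 0.047) and changed no other named call. Replicate numbers were not shown to pair the libraries, since deviations of same-numbered libraries correlated across genes at -0.0945 in AsPC-1 and 0.112 in PANC-1. Depth is unknown, so low genes cannot be given a counting limit.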
